A study of Mus musculus with 4 samples.

Results

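The genes described here encode MHC class I and the proteins that make and load its peptides, in purified pancreatic β-cells of NOD mice, a strain that develops autoimmune diabetes. A list of 10 gene symbols defined them, and a gene was read where the array annotation gives its symbol alone to a feature, which was so for 9 of the 10, out of 30176 genes read in all. *Nlrc5*, a transactivator of class I genes, shares its one feature with a microRNA gene and was not read. The members were chosen by their function with the age and genotype differences of these same arrays already seen, so all values below are a description and carry no test. There were 4 arrays of β-cells from female NOD mice, 1 for each of 6-week-old (6w) Tyk2+/+, 6w Tyk2-/-, 11-week-old (11w) Tyk2+/+ and 11w Tyk2-/- mice. Tyk2+/+ is the wild type, and Tyk2-/- mice lack the Janus kinase TYK2 through a knockout allele that was bred from the B6 onto the NOD background, and a marker on chromosome 9, which carries *Tyk2*, was still not of NOD type. The labels name no treatment of the mice. Sorted cells took up FluoZin-3-AM (a zinc dye) and TMRE (a dye for mitochondrial membrane potential) and lacked CD45 and propidium iodide stain, after labelling that also included antibody to the class I proteins H-2Kd or H-2Db. Each array held RNA pooled from several mice, with no second array of any condition, so no spread between mice is known.

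Class I molecules show short peptides from inside the cell to CD8+ T cells, which is how a cytotoxic T cell recognises a β-cell. The proteasome cuts proteins into peptides, and interferon-γ exchanges its 3 catalytic subunits for PSMB8, PSMB9 and PSMB10, which form the immunoproteasome. The transporter TAP1-TAP2 carries the peptides into the endoplasmic reticulum, where tapasin (*Tapbp*) holds the empty heavy chain (*H2-K1*, *H2-D1*) with its light chain, β2-microglobulin (*B2m*), until a peptide fits. Interferons raise the transcription of these genes in most cell types, and islets with insulitis are known for strong class I staining of their β-cells.

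Promoters are shown first because *B2m* and both heavy chain genes share sequence there and *Psmb9* and *Tap1* share a whole promoter. RefSeq start sites of the mouse reference (GRCm38.p6, strain C57BL/6J) were available for 8 of the 10 symbols, without *Tap2* and *Nlrc5*, and NOD mice can differ from this reference, in particular within the MHC. The 180 bases before the start are given for *B2m* at chr2:122147507-122147686 (plus strand), *H2-K1* at chr17:34000348-34000527 (minus strand, the more upstream of its 2 starts) and *H2-D1* at chr17:35262914-35263093 (plus strand), each from 5′ to 3′. The last entry is the whole interval of 225 bases between the starts of *Psmb9* and *Tap1*, which are transcribed in opposite directions, at chr17:34187331-34187555 on the strand of *Tap1*. Capitals mark matches on either strand to GAANNGAAA (as bound by interferon regulatory factors), GGGNNNNNCCC (like an NF-κB site), TGACG (as in the X2 box) and CCAAT (the Y box), where N is any base.
B2m: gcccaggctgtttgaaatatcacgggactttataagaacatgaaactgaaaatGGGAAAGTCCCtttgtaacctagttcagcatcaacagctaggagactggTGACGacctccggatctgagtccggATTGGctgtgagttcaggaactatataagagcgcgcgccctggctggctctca
H2-K1: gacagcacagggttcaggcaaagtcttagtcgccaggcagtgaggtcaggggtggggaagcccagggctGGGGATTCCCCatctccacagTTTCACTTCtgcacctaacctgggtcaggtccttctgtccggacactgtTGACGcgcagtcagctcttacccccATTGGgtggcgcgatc
H2-D1: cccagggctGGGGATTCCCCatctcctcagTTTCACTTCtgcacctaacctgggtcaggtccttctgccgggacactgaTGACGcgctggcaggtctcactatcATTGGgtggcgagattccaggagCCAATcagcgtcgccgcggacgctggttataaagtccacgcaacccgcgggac
Tap1-Psmb9 interval: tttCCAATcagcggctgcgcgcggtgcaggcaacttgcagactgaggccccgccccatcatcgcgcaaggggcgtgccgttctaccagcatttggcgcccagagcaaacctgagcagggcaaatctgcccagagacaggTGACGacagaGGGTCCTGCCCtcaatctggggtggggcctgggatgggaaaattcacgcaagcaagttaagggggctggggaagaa

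*H2-K1* and *H2-D1* are nearly one sequence here, with 107 of 120 bases identical (89.2%) where their windows line up without gaps, and both hold GGGGATTCCCC followed by TTTCACTTC. *B2m* has little in common with them along its length (28.9% identity with *H2-K1* and 36.3% with *H2-D1*), yet holds GGGAAAGTCCC. Just before that stretch it also has gaaactgaaa, left in lower case because its gap between GAA and GAAA is wider than GAANNGAAA allows. The missing mark in *B2m* therefore does not show that it lacks a site for interferon regulatory factors. In all 3 promoters TGACG is followed, after exactly 20 bases of any kind, by ATTGG, the Y box on the other strand, and this spaced pair overlaps the single TGACG and CCAAT matches. Over the 250 bases before each start, on both strands, the spaced pair was present in 26 of 27025 genes (0.0962%), while 19.8% had TGACG, 37.5% CCAAT, 13.8% GGGNNNNNCCC and 7.3% GAANNGAAA. The *Tap1-Psmb9* interval holds GGGTCCTGCCC and single matches to the X2 and Y box letters but not the spaced pair. In the windows of *Psmb8* and *Psmb10* none of these letters were found, and that of *Tapbp* held CCAAT matches alone. The spacing was noticed on reading these sequences, and a match is not a binding site.

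Signals are given as deposited by the authors, as normalized intensities on a linear scale. The median signal of the 65956 features was between 15.7 and 17.5 on the 4 arrays, and a signal near it cannot be told from background by these files. The highest signal, at which 86 to 97 features stood on each array, was between 923703 and 999966. Signals of different features depend on their probes, so genes are compared here by their differences between arrays and not by their levels. *Ins2*, the insulin gene, gave signals of 93930.1 to 101685. *Iapp* had the highest signal of every array, and so had the α-, δ- and PP-cell hormone genes *Gcg*, *Sst* and *Ppy*. Calls follow the rule of the next paragraph. Of 11 measured β-cell markers, 4 (*Slc2a2*, *G6pc2*, *Ucn3* and *Ero1b*) were called lower at 11w than at 6w for Tyk2+/+ and none higher. Of all genes, 1.45% were called lower there and 2.14% higher. At 6w, 4 (*G6pc2*, *Ucn3*, *Pcsk1* and *Ero1b*) were called lower in Tyk2-/- than in Tyk2+/+, against 1.09% of all genes. The 6w Tyk2+/+ array thus stood apart in several of these markers. *Mafa* was called higher at 11w in Tyk2-/- than in Tyk2+/+ (0.60), with signals of 18.8 and 12.4, near and below the array median.

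A gene was called higher where its ratio between 2 arrays was above 1.5 and its Z score above 2.0, and lower where they were below 0.66 and -2.0. For the Z score, the log2 difference of a gene was set against the SD of such differences over the features nearest to it in mean signal. It asks how unusual a difference is among features of like brightness and does not measure the error of a gene.

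*B2m*, the light chain without which class I does not reach the cell surface, had a signal of 8874 on the 6w Tyk2+/+ array and of 8255 on that of 6w Tyk2-/- β-cells. At 11w it gave 183270 (Tyk2+/+) and 192544 (Tyk2-/-). Both 11w arrays stood far above both 6w arrays, and the genotypes of one age lay close together. It rose with age by 4.37 on the log2 scale (20.7 times) for Tyk2+/+, with a Z score of 4.82, and by 4.54 (23.3 times) for Tyk2-/-, with a Z score of 4.63. These differences ranked 5 and 10 from the top among the 30176 genes. In RNA of a pool of cells, more RNA per cell cannot be told apart from more cells that carry it. *B2m* was the one member called with age, 1 of 9 higher and 0 lower in either genotype, where the share of all genes was 2.14% higher and 1.45% lower for Tyk2+/+, and 1.62% higher and 1.35% lower for Tyk2-/-.

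*B2m* stood below the highest signal on every array, but the highest signals matter for reading it at 11w. Its signal was 19.8% of the highest signal on both 11w arrays, against 0.887% and 0.826% on the 6w Tyk2+/+ and Tyk2-/- arrays. Its difference between the 11w genotypes, 0.07 on the log2 scale (Tyk2-/- minus Tyk2+/+), equalled that between the highest signals of the 2 arrays to within 0.0001. The same held for 252 features, of which 86 stood at the highest signal itself, and for 130 of the 302 features at least as bright as *B2m* on the 11w Tyk2+/+ array. Another 122 of the 252 were dimmer than *B2m*, so the shared difference was not confined to the brightest features. Where it comes from was not tested. A genotype difference of *B2m* at 11w can therefore not be read from these values, and it was 0.22 after quantile normalization. At 6w, where it did not equal that of the highest signals, the log2 difference between genotypes was -0.10, and 0.05 after quantile normalization. The age differences of *B2m* (4.37 and 4.54) use the same 11w signals, so their sizes and the gap between them share this limit.

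**Figure D1:**
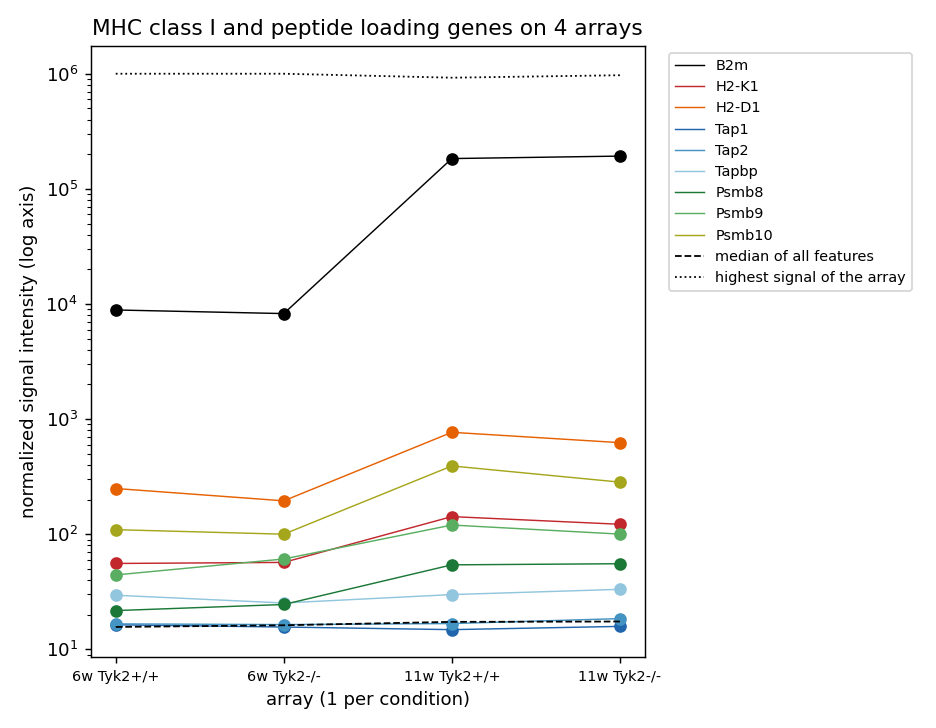
Normalized signal intensity (log axis) of the 9 genes on the 4 arrays, 1 array for each condition, with the median of all features (dashed) and the highest signal (dotted) of each array. *B2m* goes from 8874 and 8255 at 6w to 183270 and 192544 at 11w, *H2-K1*, *H2-D1*, *Psmb8*, *Psmb9* and *Psmb10* are higher on both 11w arrays than on both 6w arrays, and *Tap1* and *Tap2* stay near the median. Lines join the points of a gene and levels of different genes are not comparable.

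The heavy chains carry the peptide groove and were higher on both 11w arrays. *H2-D1* gave 250 (Tyk2+/+) and 195 (Tyk2-/-) at 6w, and 768 (Tyk2+/+) and 625 (Tyk2-/-) at 11w. On the log2 scale its difference with age was 1.62 for Tyk2+/+, with a Z score of 1.38, and 1.68 for Tyk2-/-, with a Z score of 1.32, so it was not called for either. The 6w and 11w signals did not overlap, and within each age the Tyk2-/- array was the lower one, by a log2 difference of -0.30 at 11w and of -0.36 at 6w. *H2-K1* gave 55.8 and 57.0 at 6w and 142 and 122 at 11w (Tyk2+/+ first), again with no overlap of the ages. Its difference with age was 1.35 for Tyk2+/+ and 1.10 for Tyk2-/-, neither of them called. Between genotypes it was -0.22 at 11w (Z score -0.18) and 0.03 at 6w, sizes that are common among features of this brightness, and the latter was -0.02 with arrays centred on their medians. Class I heavy chain genes are near copies of one another, and NOD mice carry the Kd and Db proteins at these loci where the reference strain has Kb and Db, so which of them a feature measures in NOD cells is uncertain.

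The immunoproteasome subunits showed the same order of ages. *Psmb10* gave 109.6 (Tyk2+/+) and 100.2 (Tyk2-/-) at 6w, and 392 (Tyk2+/+) and 284 (Tyk2-/-) at 11w. Its log2 difference with age was 1.84 for Tyk2+/+, next in size to that of *B2m*, and 1.5 for Tyk2-/-, with Z scores of 1.5 and 1.24. Between the 11w genotypes it had the lowest difference of the members, -0.47, with a Z score of -0.40. *Psmb8* gave 21.7 and 24.5 at 6w and 54.3 and 55.5 at 11w (Tyk2+/+ first), which is 1.39 and 1.52 times the array median at 6w and 3.13 and 3.18 times the median at 11w. Its differences of 1.32 (Tyk2+/+) and 1.18 (Tyk2-/-), with Z scores of 1.83 and 1.79, came nearest to the limit without passing it. Its 11w genotypes differed by 0.03.

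*Psmb9*, the subunit with a caspase-like constitutive counterpart, was the member whose genotypes differed the most in their age difference. It gave 44.3 (Tyk2+/+) and 61 (Tyk2-/-) at 6w, and 120.3 (Tyk2+/+) and 100.3 (Tyk2-/-) at 11w, so that the Tyk2-/- array was the higher one at 6w and the lower one at 11w. The log2 difference with age was 1.44 for Tyk2+/+, with a Z score of 1.33, and 0.72 for Tyk2-/-, with a Z score of 0.68. The second minus the first was -0.72. Between genotypes the difference was 0.46 at 6w and -0.26 at 11w, neither of them called. With 1 array per condition this difference of differences has no test, and over the other members it ran from -0.34 (*Psmb10*) to 0.38 (*Tapbp*).

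The genes of peptide transport and loading differed little between arrays, and the transporter genes stood near the array median. *Tap1* gave 16.4 and 15.6 at 6w and 14.8 and 15.8 at 11w (Tyk2+/+ first), between the 35.2 and the 53.6 percentile of its array. *Tap2* gave 16.7, 16.4, 16.8 and 18.5 in that order, between the 47.0 and the 54.9 percentile. At these signals a change of either gene would be hard to see, and the values do not show that it was absent. With age, in the order Tyk2+/+ and Tyk2-/-, the log2 differences were -0.14 and 0.02 for *Tap1* and 0.01 and 0.17 for *Tap2*. *Tapbp* gave 29.5 and 25.3 at 6w and 29.9 and 33.2 at 11w (Tyk2+/+ first), with differences of 0.02 and 0.39. Centring the arrays on their medians lowers every age difference by the shift of the array, after which *Tap2* (-0.14) and *Tapbp* (-0.13) for Tyk2+/+ and *Tap1* (-0.09) for Tyk2-/- are below 0.

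*Tap1* and *Psmb9* read in opposite directions from the 225-base interval printed above, and their features had age differences of -0.14 and 1.44 for Tyk2+/+ and of 0.02 and 0.72 for Tyk2-/-. *Psmb9*, *Tap1*, *Psmb8* and *Tap2* follow each other without another gene between them in the RefSeq order of chromosome 17. Within this block both proteasome subunits were higher at 11w, while both transporter genes stood near the array median throughout.

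**Figure D2:**
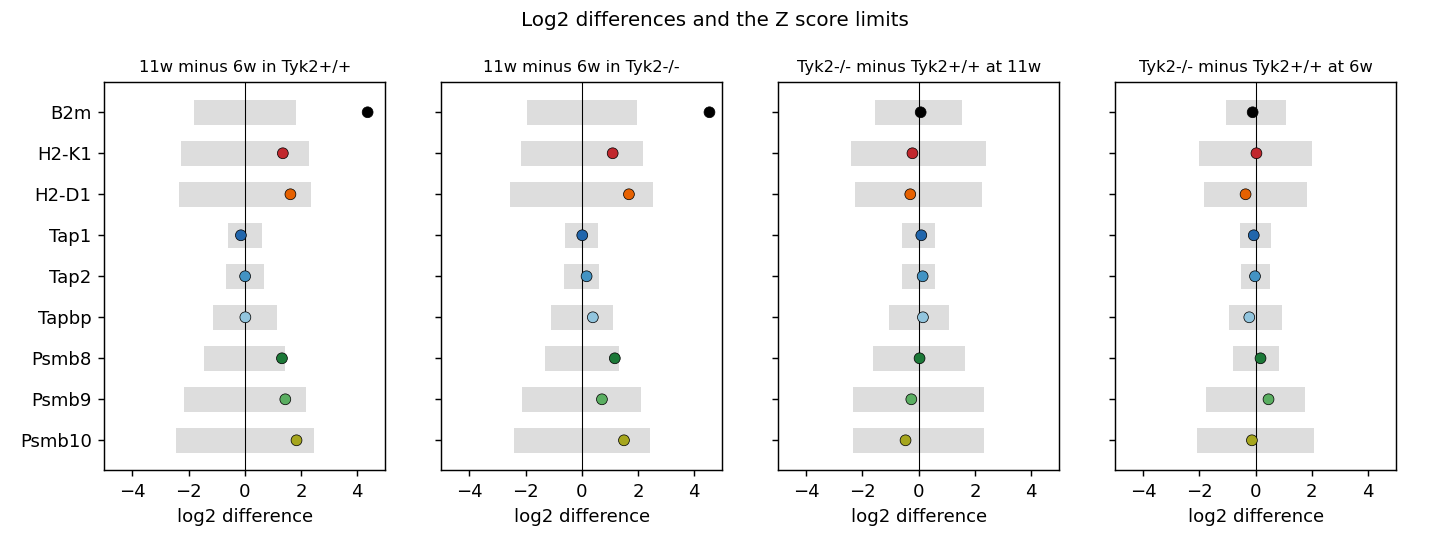
Log2 differences (horizontal axes) of the 9 genes in the 4 comparisons, with gray bars from -2.0 to 2.0 times the SD of features of like signal, the limits of the Z score. The points of *B2m* at 4.37 and 4.54 lie outside their bars in both age comparisons, and every other point lies inside.

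Over the 9 members, the median difference with age was 1.35 for Tyk2+/+, against 0.07 over all genes, and 1.10 for Tyk2-/-, against 0.05. Above 0 were 8 of 9 (Tyk2+/+) and 9 of 9 (Tyk2-/-), against 61.2% and 58.8% of all genes. A ratio above 1.5 in both genotypes, without a Z score, was found for 6 of 9 members (*B2m*, *H2-K1*, *H2-D1*, *Psmb8*, *Psmb9* and *Psmb10*) and for 0.891% of all genes. A ratio above 2 in both was found for 5 of them, without *Psmb9*, and for 0.136% of all genes. Among all genes the lowest of these 6 stood at the 99.5 percentile for Tyk2+/+ (*Psmb8*) and at the 96.9 percentile for Tyk2-/- (*Psmb9*). The 5 of them without a call have signals at which features spread widely, with an SD of 0.72 to 1.23 for Tyk2+/+ against 0.31 to 0.34 at the signals of *Tap1* and *Tap2*. The count of calls therefore depends on how the spread is taken. With 1 SD for all features, 6 members passed for Tyk2+/+ (0.898% of all genes) and 5 for Tyk2-/- (1.01%). By a ratio above 2 alone it was again 6 and 5, with 1.27% and 1.43% of all genes. With an SD taken from the median absolute deviation of features of like signal, a setting chosen after the data had been seen, 4 and 3 passed, with 3.38% and 2.69% of all genes.

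**Figure D3:**
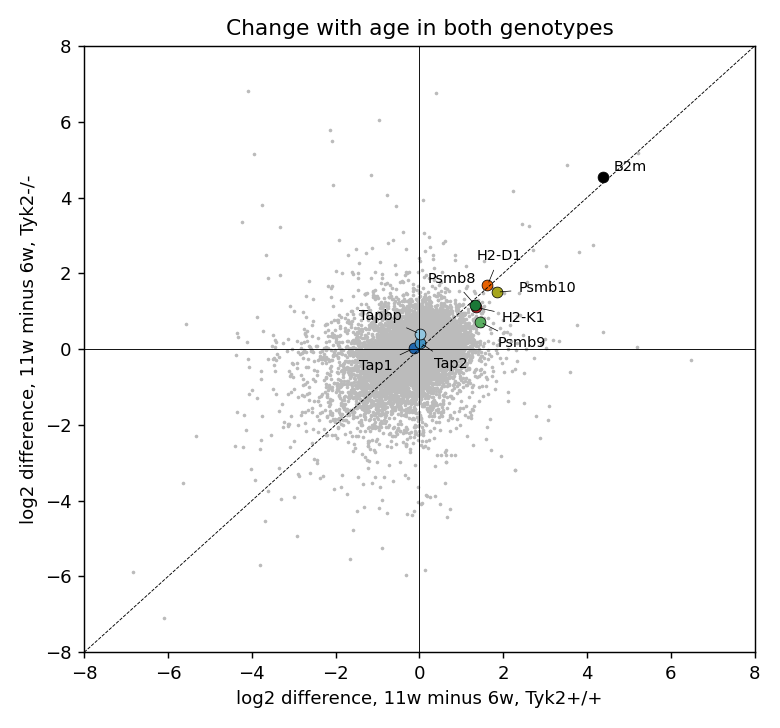
Log2 difference from 6w to 11w in Tyk2+/+ (horizontal) against Tyk2-/- mice (vertical), for all 30176 genes (gray) and the 9 members, with the line of equal change (dashed). *B2m* stands at 4.37 and 4.54, the heavy chains and immunoproteasome subunits at 1.32 to 1.84 and 0.72 to 1.68, and *Tap1*, *Tap2* and *Tapbp* near the centre.

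Between genotypes, none of the 9 members was called at either age, where the share of all genes was 1.51% higher and 1.35% lower in Tyk2-/- at 11w, and 1.26% higher and 1.09% lower at 6w. The median difference (Tyk2-/- minus Tyk2+/+) was 0.03 at 11w, with members from -0.47 (*Psmb10*) to 0.15 (*Tapbp*). At 6w it was -0.06, with members from -0.36 (*H2-D1*) to 0.46 (*Psmb9*). Below 0 at 11w were 4 members, *H2-K1*, *H2-D1*, *Psmb9* and *Psmb10*. These comparisons use the same arrays as those of age.

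*Cxcl9*, a chemokine that draws CXCR3-bearing T cells, had the profile over the 4 arrays most like that of *B2m* among 10917 genes. These were named genes, never at the highest signal, whose mean over the 4 arrays was at or above the median over all features. The likeness was measured as the distance between log2 profiles centred on their means, which was 0.81 for *Cxcl9* and 1.41 for *Cxcl13*, a chemokine for B cells. *Cxcl9* gave 35.1 and 28.1 at 6w and 1299 and 1008 at 11w (Tyk2+/+ first). *Glycam1* (1.65), *Ccl19-ps1* (1.92) and *Serpina1b* (2.02) followed. To the median profile of the members the nearest were *Gbp3* (0.11), *Madcam1* (0.19), *Prpf38b* (0.19), *Iigp1* (0.22) and *Avl9* (0.23), of which *Gbp3* and *Iigp1* encode interferon-induced GTPases and *Madcam1* an adhesion molecule of vessels. *Gbp3* gave 15.5 and 15.3 at 6w and 37.8 and 31.6 at 11w (Tyk2+/+ first). *Gbp3* and *Ccl19-ps1* (8.93 and 13.6 at 6w) were below the median of both 6w arrays and passed the limit on the mean through their 11w signals. At 6w, *Madcam1* (15.996 and 16.515) and *Iigp1* (15.15 and 18.02, Tyk2+/+ first) stood near the array medians. The 6w part of the profiles of *Gbp3*, *Ccl19-ps1*, *Madcam1* and *Iigp1* therefore cannot be told from background. Among the members themselves *H2-K1* was the closest to that median profile (0.08) and *B2m* the farthest (3.29).

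Further genes of the pathway were grouped by role. Of 15 measured further class I heavy chain and class I-like genes, none was called in any of the 4 comparisons, and their median difference with age was 0.25 (Tyk2+/+) and 0.23 (Tyk2-/-). The largest in size were *H2-K2*, a pseudogene beside *H2-K1* (0.72 and 0.47), *H2-T10* (-0.28 and 0.95), *H2-Q4* (0.60 and 0.71) and *H2-Q10* (0.61 and 0.44). *H2-K2* gave 80.0 and 65.5 at 6w and 132 and 90.6 at 11w (Tyk2+/+ first), so both 11w arrays were above both 6w arrays there too.

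The immunoproteasome subunits replace constitutive ones, of which 2 of 3 were measured. *Psmb6*, which PSMB9 replaces, differed with age by 0.11 (Tyk2+/+) and -0.42 (Tyk2-/-), and *Psmb7*, which PSMB10 replaces, by -0.17 and -0.75. Neither was called. Among 4 proteasome activators and assembly factors, none was called either, with medians of -0.32 and -0.64. *Psme1*, a subunit of the interferon-inducible activator, had differences of -0.10 and 0.10, and *Pomp*, the chaperone of proteasome assembly, of -0.53 and -1.03. The widest gap between genotypes was that of *Psme3*, with 0.00 and -1.22.

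Of 10 genes for folding and peptide trimming in the endoplasmic reticulum, *Bcap31* was the one called, which was lower with age for Tyk2+/+ (a log2 difference of -3.33), and lower at 6w (-2.01) but higher at 11w (3.28) for Tyk2-/- against Tyk2+/+. Its protein takes part in the export of membrane proteins from the endoplasmic reticulum. The signals were 1493 and 371 at 6w and 148 and 1436 at 11w (Tyk2+/+ first), with no common order of age or genotype. *Erap1*, which trims peptides to the length that class I holds, differed with age by 0.28 and -0.72, and *Tapbpl*, a relative of tapasin, by 0.44 and 0.33. The calreticulin, calnexin and ERp57 genes, whose products assist loading, lay between -0.50 (*Calr*, Tyk2-/-) and 0.54 (*Canx*, Tyk2-/-). *Hspa5*, the chaperone BiP, had -0.29 and -0.47, and *Sec61a1*, of the translocation channel, -0.78 and -0.20. None of the 7 cytosolic peptidases was called in any comparison, and their medians with age were -0.12 and 0.18.

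Of 15 measured transcription factors of class I genes, 10 were above the array median on all 4 arrays. None was called in any comparison, and the medians with age were 0.14 (Tyk2+/+) and -0.03 (Tyk2-/-). *Irf1*, an interferon-induced activator of *Tap1*, *Psmb9* and class I genes, gave 17.6 and 16 at 6w and 20.9 and 18.2 at 11w (Tyk2+/+ first), near the array medians. The largest differences with age were those of *Irf2* (-0.44 and -0.999), *Rfxap* (-0.80 and -0.37) and *Creb1* (0.74 and -0.58). *Rfx5*, a subunit of the factor that binds the X box, gave 20.03, 20.8, 22.01 and 23.7 in that order. Of 5 genes of the interferon-γ receptor and its kinases, including *Ifng* itself, none was called. *Jak1* had -0.85 and 0.13, and *Ifng* gave 9.33 to 14.3, below the median of each array.

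Leukocytes carry much class I, and the cells had been sorted as negative for CD45. *Ptprc*, which encodes CD45, gave 12.8 and 13.4 at 6w and 15.2 and 15.8 at 11w (Tyk2+/+ first), below the median of every array. All 10 pan-leukocyte markers were measured, and their summed signal was 146, 149, 204 and 162 in that order. With age *Cd48* (1.08) and *Ptpn6* (1.23) were called higher for Tyk2+/+, and both were lower in Tyk2-/- than in Tyk2+/+ at 11w (-1.02 and -1.27). *Cd48* gave 14.2, 14.4, 30.0 and 14.9 in that order, below the array median except on the 11w Tyk2+/+ array. Of 15 macrophage and dendritic cell markers, *Aif1* (0.87) was called higher with age for Tyk2+/+ and no marker for Tyk2-/-. Their summed signal was 204, 213, 255 and 237, and *Lyz2*, a lysozyme of macrophages that was not called, gave 20.2, 20.2, 37.8 and 31.5. The 9 T and NK cell markers (129, 132, 136 and 140) and the 5 B cell markers (79.0, 80.7, 85.2 and 82.3, summed signals) had no calls. Most of these leukocyte sums is signal near the array median, which was itself 15.7, 16.2, 17.3 and 17.5 in that order. They are thus no measure of cell content. Above the array median on all 4 arrays were 2 of 10 pan-leukocyte markers (*Coro1a* and *Ptpn6*), 1 of 9 T and NK cell markers (*Cd3g*), 2 of 5 B cell markers (*Cd79a* and *Cd79b*) and 2 of 15 macrophage and dendritic cell markers (*Lyz2* and *Cd14*). Below it on all 4 were 5, 6, 3 and 11 in that order, among them *Cd3e*, *Cd8a*, *Ms4a1* and *Adgre1*. Endothelial markers (8 of 8) summed to 120, 117, 134 and 143, with *Plvap* called higher with age for Tyk2-/- (0.71) and at 11w in Tyk2-/- against Tyk2+/+ (0.75). The signals of *Plvap* (11.2, 10.5, 10.3 and 17.3) were below the median of every array. Acinar markers (9 of 11) summed to 251, 205, 210 and 317, with *Cela2a* (0.91) and *Sycn* (1.32) called higher with age for Tyk2-/-. Between genotypes *Cela2a* (0.84), *Clps* (1.80) and *Sycn* (1.24) were called higher in Tyk2-/- at 11w, and *Prss2* (-1.11) lower at 6w. *Sycn* (11.9, 13.4, 14.1 and 33.3) was above the array median on the 11w Tyk2-/- array alone, and *Cela2a* gave 17.5, 14.8, 15.6 and 27.9. Fibroblast and stellate cell markers (6 of 7) summed to 15576, 8981, 12571 and 14518, most of it from *Dcn*, with no call. What part other cells had in the signals of the members was not tested.

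**Figure D4:**
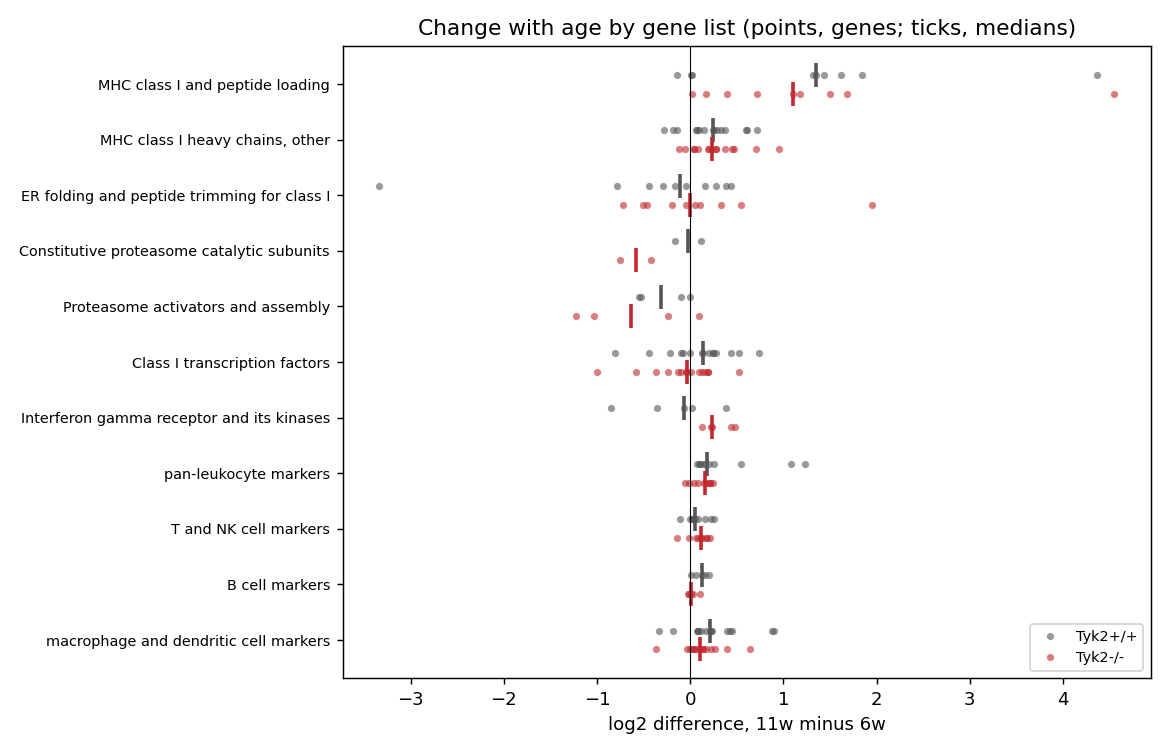
Log2 difference from 6w to 11w (horizontal axis) of each gene in the lists (points) and of the list median (ticks), in Tyk2+/+ (gray) and Tyk2-/- (red) mice. The 9 members have medians of 1.35 and 1.10, while the medians of the other lists drawn here, those of the pathway and of leukocyte markers, lie between -0.64 and 0.25.

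The spaced pair of TGACG and ATTGG was also found before 22 further genes on the array. Of these, 1 (*BC051142*) was called higher with age for Tyk2+/+ and 1 (*Gm1096*) for Tyk2-/-, and none lower. Of all genes, 2.14% and 1.62% were called higher and 1.45% and 1.35% lower. In Tyk2-/- against Tyk2+/+ at 11w, *BC051142* was called lower (-3.01) and *Gm1096* higher (1.40), against 1.35% and 1.51% of all genes. The median difference of the 22 genes with age was 0.11 and 0.04, where all genes had 0.07 and 0.05. *H2-M3*, a class I gene that presents formylated peptides, has the pair and gave 36.7 and 21.3 at 6w and 38.7 and 25.8 at 11w (Tyk2+/+ first), with differences with age of 0.08 and 0.28.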

How the data were processed

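RNA of sorted β-cells was labelled with the GeneChip WT Pico kit and hybridised to Affymetrix Clariom D mouse arrays. Sorted cells took up FluoZin-3-AM and TMRE and were negative for CD45 and propidium iodide. The authors deposited normalized signal intensities on a linear scale, made with Affymetrix Expression Console per the submitters' notes. Background correction and normalization are not given in the sources used here. The array annotation gave 1 symbol to 30638 of 65956 features, several to 2176 and none to 33142. Where a symbol had several features, that with the highest mean signal was used, which left 30176 genes. Python 3.11.15 with NumPy 2.4.6 and pandas 2.3.3 made the 4 comparisons of 2 arrays from log2 signals. The methods print the ratio limits with reversed signs and no formula for the Z score, so both were read as stated in the text. Plots used matplotlib 3.10.9. With 1 array per condition there was no test, and precision is limited by the number of arrays. The members, gene lists and rules were chosen with earlier results of these data known. Named were all members, called genes of the other lists and up to 4 of each class I list with the largest differences, the nearest profiles, and further genes chosen after their values were seen (*Psme1*, *Erap1*, *Tapbpl*, *Irf1*, *Rfx5*, *Ifng*, *Lyz2*, *H2-M3* and defining markers). Promoter sequences are from RefSeq (GRCm38.p6). The calling was tested on simulated data.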

Additional observations from a re-analysis of the deposited data

How the results depend on the processing

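With 1 SD for all features in the Z score, 6 members were called higher with age in Tyk2+/+ and 5 in Tyk2-/- mice, and a ratio above 2 or below 0.5 alone gave the same counts of 6 and 5, in place of 1 and 1. The added genes were *H2-K1*, *H2-D1*, *Psmb8* and *Psmb10* in both genotypes and *Psmb9* in Tyk2+/+ mice. With log2(signal + 16), 2 members (*B2m* and *Psmb8*) were called in Tyk2+/+ mice, *Psmb8* with a Z score of 2.01, just above the limit. The share of all genes called with this setting is not given here. With an SD from the median absolute deviation, a setting chosen after the data had been seen, 4 were called in Tyk2+/+ (*B2m*, *Psmb8*, *Psmb9* and *Psmb10*) and 3 in Tyk2-/- mice. No setting called a member between genotypes. A smaller window, centred arrays, quantile normalization, the mean of features, and leaving out dim features or those at the highest signal changed no count. The median difference of the members with age was 1.14 to 1.54 for Tyk2+/+ and 0.82 to 1.20 for Tyk2-/-, that between genotypes from 0.02 to 0.03 at 11w and from -0.11 to -0.03 at 6w. Signals near the array median limit what can be seen of *Tap1* and *Tap2*. For *B2m* the limit is an 11w genotype difference equal to that of the highest signals, although it stood below them. No array could be left out, since each condition has 1. No paired analysis was possible by replicate number because the labels give none, and the age differences of the 2 genotypes are set side by side with no test.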
